A study of Homo sapiens with 6 samples.

Results

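Splicing factor genes were examined in MM.1R cells given epirubicin. The genes were those whose symbol begins with SRSF, HNRNP, SNRP, SF3A, SF3B, LSM, PRPF or U2AF. Of 17534 genes with a probe set naming that gene alone, 80 met this rule. Each was read by its brightest such probe set, and probe sets were thus chosen by the mean level over the 6 arrays, the only measured value in the rule. The 80 genes had 255 probe sets between them, from 1 to 11 per gene, and the others were kept to compare different parts or transcripts of a gene.

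MM.1R is a glucocorticoid-resistant human multiple myeloma line, and total RNA was measured on PrimeView arrays. On 3 arrays the cells had received epirubicin hydrochloride, an anthracycline that poisons topoisomerase II, to inhibit their proliferation, and on 3 arrays they had been infected with the control vector shCtrl. Only the shCtrl labels mention a vector, so that the effects of drug and vector cannot be told apart. No source used here states the dose or duration of treatment. Nor is it stated that the 3 arrays of each group came from separate cultures, and the p-values therefore measure only the scatter of these arrays, which may be technical.

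The spliceosome removes introns from pre-mRNA in steps carried out by small nuclear ribonucleoproteins (snRNPs), each built on an RNA that carries a ring of Sm or LSM proteins. SR proteins bind exons and help to recruit the U1 and U2 particles, while many hnRNP proteins bind pre-mRNA and repress or redirect splice sites. Genes for SR and hnRNP proteins commonly make alternative transcripts of their own, some of which contain poison exons and are degraded.

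The members stood within a clear difference between the groups. Across probe sets, Pearson's r was 0.998213 to 0.99847 between arrays within a group and 0.994496 to 0.994729 between groups. CDKN1A, the p21 cell cycle inhibitor, was 3.68-fold higher with epirubicin, MDM2, the p53 ubiquitin ligase, 2.11-fold higher, and the transcription factor gene MYC 1.44-fold lower. All 10 plasma cell markers examined had a mean over the 6 arrays above the median of all values, 5.54. All 10 exceeded it on every shCtrl array, and 9 on every epirubicin array. CD38 lay below it with epirubicin, at 5.16, 5.30 and 5.28. Of the 10 markers, 2 were called lower with epirubicin, CD38 by 1.18 on the log2 scale and IRF4 by 0.49, and none was called higher. Short of the fold threshold, SLAMF7 and POU2AF1 were higher by 0.23 and 0.25, and XBP1 and PRDM1 lower by 0.24 and 0.12. Of markers of other cells, 3 of 10 myeloid genes were called higher with epirubicin (summed level, as log2, 8.87 to 8.97 on the epirubicin arrays and 8.10 to 8.16 on the shCtrl arrays), and so were 2 of 8 stromal genes (8.44 to 8.45 and 7.76 to 7.84). The median of all values was exceeded on every array of the group by 2 myeloid genes with epirubicin and 1 with shCtrl, and likewise by 2 stromal genes with epirubicin and 1 with shCtrl. The myeloid genes called were ITGAM, 13.4-fold higher with epirubicin (mean 6.99, against 3.25 with shCtrl), CD68, 1.55-fold higher, and S100A9, 1.45-fold higher. The rest of the myeloid list, CD14, LYZ and S100A8 among them, was not called. None of the measured B cell, T and NK cell or epithelial markers was called. Of all genes 4.36% were called higher and 2.14% lower. The marker genes named here were picked after their values were seen, and the lists' part in the results below was not tested.

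The splicing factor genes were lower on the whole with epirubicin, by small amounts. The mean log2 value over the 80 genes was 9.30, 9.31 and 9.31 on the epirubicin arrays, against 9.45, 9.45 and 9.47 on the shCtrl arrays. The groups did not overlap. The log2 fold change, epirubicin minus shCtrl, was below 0 in 72 of 80 members (90%), against 44.3% of all genes. Its median was -0.13 in the members and 0.02 in all genes, and the members ran from -0.51 to 0.33. In these bulk samples a lower content per cell and a smaller share of cells with the transcript cannot be told apart.

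A gene was called higher or lower when limma's adjusted p was under 0.05 (Benjamini-Hochberg over all 17534 genes) and the fold change reached 1.3, or 0.38 on the log2 scale. By that rule 3 members were called lower, SRSF2, HNRNPDL and HNRNPA0, a share of 3.75% where 2.14% of all genes were called lower. Among genes with a mean above 8 the shares were 4.69% of members and 3.68% of all genes. No member was called higher, where 4.36% of all genes were. At an adjusted p under 0.05 with no limit on the fold, 42 members were lower (52.5%), where 13.5% of all genes were, and 2 were higher, HNRNPM and U2AF1L4, where 15.6% of all genes were. All 3 epirubicin arrays lay below all 3 shCtrl arrays in 59 members (73.8%), where 20.1% of all genes showed this, and above them in 4, where 23.8% of all genes showed it. The plot of fold changes by class shows the same leftward position in most classes.

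**Figure D1:**
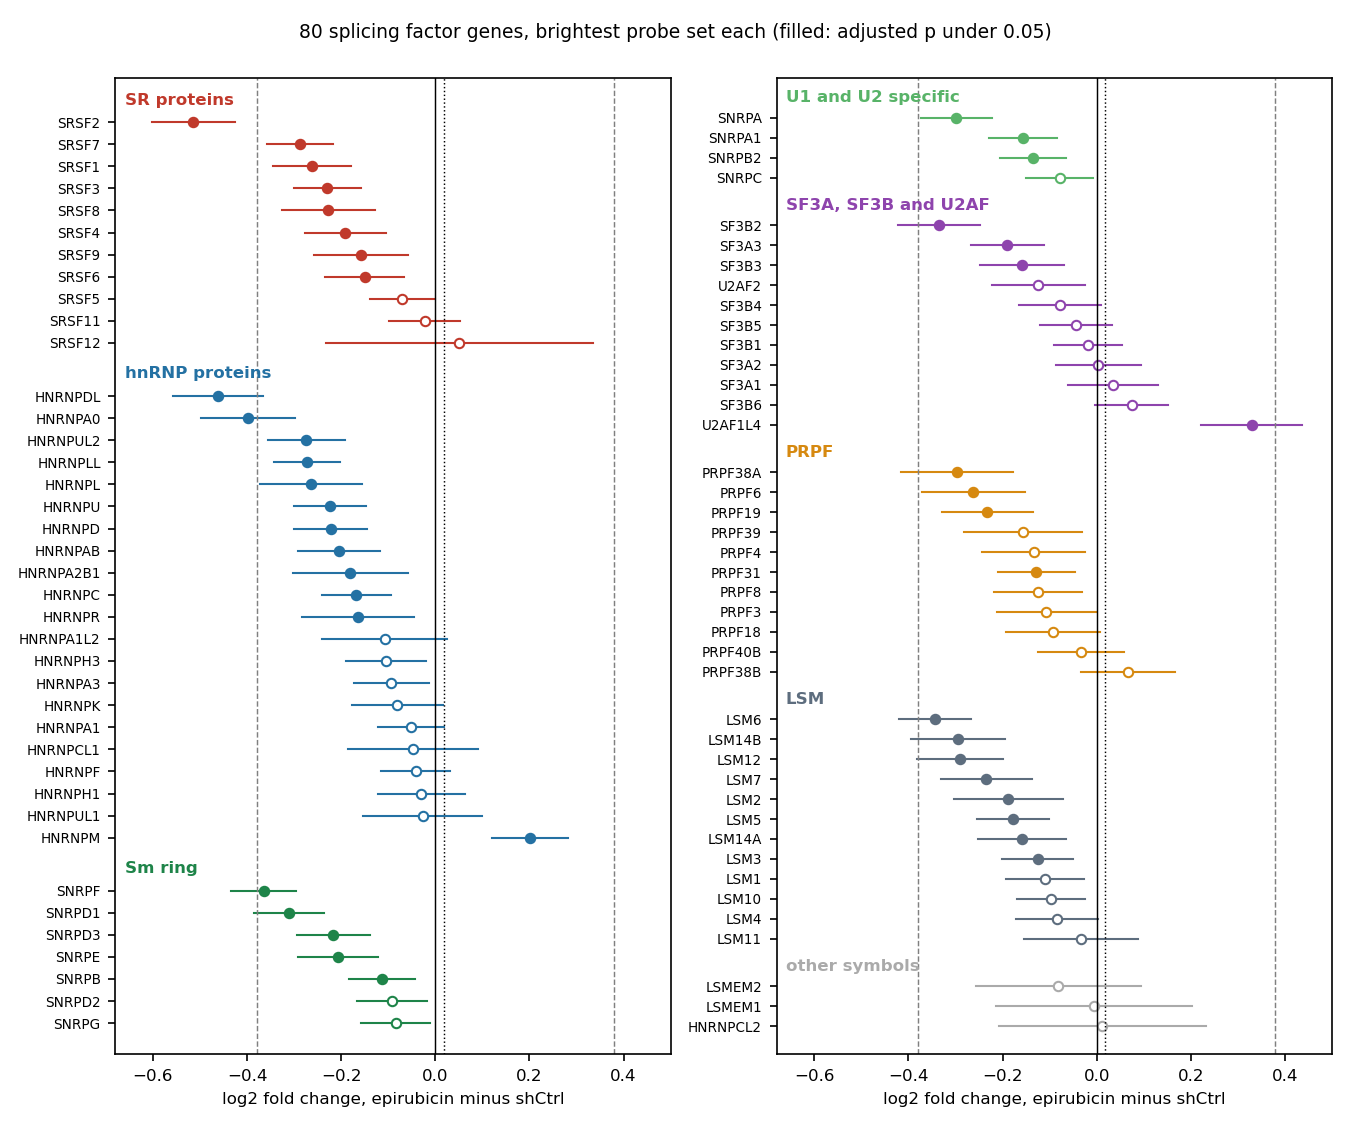
Log2 fold change (epirubicin minus shCtrl) of the 80 splicing factor genes by class, with 95% confidence intervals from limma. Filled points have an adjusted p under 0.05, dashed lines mark a fold change of 1.3, and the dotted line marks the median of all genes at 0.02. Of the 80 points 72 lie below 0, and U2AF1L4 and HNRNPM are the filled points above it.

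Splicing factor transcripts gave bright signals, and bright genes lay slightly lower with epirubicin in general. The mean over the 6 arrays exceeded 8 in 64 members. Of these, 40 were lower at an adjusted p under 0.05 at any fold (62.5%), where 29.8% of all 4516 genes above 8 were. The fold change was below 0 in 61 of the 64 (95.3%), where 55.8% of all genes above 8 lay below 0, and the median was -0.16 in the members and -0.02 in all genes above 8. All epirubicin arrays lay below all shCtrl arrays in 54 of the 64 (84.4%), where 42.8% of all genes above 8 showed this. Of the 16 members at or below 8, 2 were lower (12.5%) and 1 higher (6.25%) at an adjusted p under 0.05. Of all genes, whatever their mean, 13.5% were lower and 15.6% higher. After cyclic loess, a scaling added after the data were seen that removes a trend with brightness, the members' median was -0.10, against 0.02 in all genes.

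**Figure D2:**
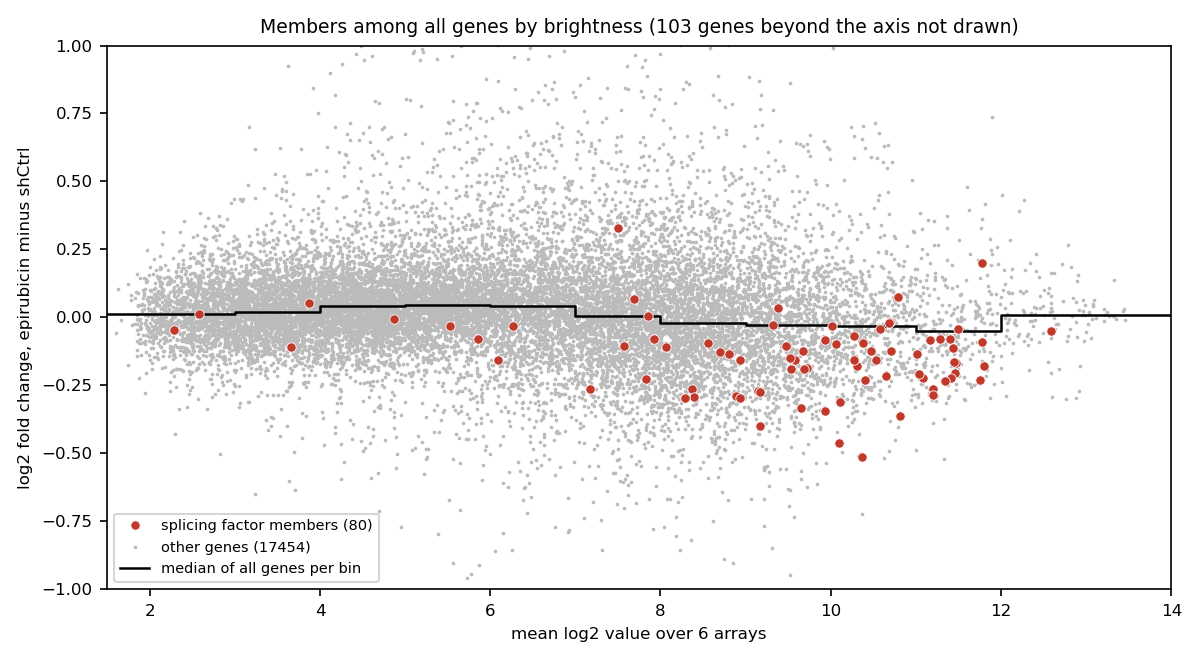
Log2 fold change (epirubicin minus shCtrl) against the mean log2 value over the 6 arrays, for the 80 members (red) and the other 17454 genes (grey). The black line is the median of all genes per bin of brightness, and 103 genes beyond 1 in either direction are not drawn. Most members lie at means between 8 and 12 and below the black line.

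The SR proteins, which bind exonic enhancers, gave 11 measured members. At an adjusted p under 0.05 at any fold 8 were lower (72.7%), none was higher, and the median log2 fold change was -0.19. Of all genes 13.5% were lower and 15.6% higher by this measure, and of those with a mean above 8, 29.8% and 21.8%. SRSF2, which binds exonic enhancers and is recurrently mutated in myeloid neoplasms, had log2 values of 10.05, 10.14 and 10.13 on the epirubicin arrays, against 10.61, 10.61 and 10.64 on the shCtrl arrays. Every epirubicin array lay well below every shCtrl array. SRSF2 fell by 0.51 on the log2 scale, a 1.43-fold lower level (SE 0.04, adjusted p = 0.00018). Its other 2 probe sets differed by -0.34 and -0.31.

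SRSF7, an SR protein with a zinc knuckle, had 11.05, 11.05 and 11.06 with epirubicin, against 11.32, 11.35 and 11.35 with shCtrl. The groups were apart by many times their spread, and the log2 fold change was -0.29 (SE 0.03, adjusted p = 0.000735), short of the fold threshold. SRSF1, the founding member of the family, had 11.03, 11.10 and 11.09 with epirubicin, against 11.33, 11.32 and 11.36 with shCtrl. Its groups also did not overlap, at a log2 fold change of -0.26 (SE 0.03, adjusted p = 0.00199). SRSF3, a small SR protein that also acts in mRNA export, had 11.65, 11.61 and 11.64 with epirubicin, against 11.87, 11.87 and 11.86 with shCtrl. Here too the epirubicin arrays were all lower, at a log2 fold change of -0.23 (SE 0.03, adjusted p = 0.00182). Of its other probe sets 2 were called lower, both by 0.45. The remaining SR genes ran from -0.23 to 0.05, and SRSF11 and SRSF12 were those whose groups overlapped.

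Among the 21 hnRNP members, 11 were lower (52.4%) and 1 higher at an adjusted p under 0.05 at any fold. By this measure 13.5% of all genes, and 29.8% of those with a mean above 8, were lower. The median log2 fold change was -0.16. HNRNPDL, a close relative of the AU-rich element binding protein hnRNP D, had log2 values of 9.92, 9.88 and 9.82 on the epirubicin arrays, against 10.29, 10.33 and 10.37 on the shCtrl arrays. The groups were clearly apart on this probe set, and HNRNPDL fell by 0.46 (SE 0.04, adjusted p = 0.000405). The mean of its 5 probe sets, of which 2 lay in the other direction, gave -0.14 (adjusted p = 0.00756) and was not called.

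HNRNPA0, an hnRNP of the A/B group, had 8.91, 8.95 and 9.03 with epirubicin, against 9.33, 9.36 and 9.39 with shCtrl. The lowest shCtrl array exceeded the highest epirubicin array, and HNRNPA0 fell by 0.40 (SE 0.04, adjusted p = 0.000821). This value lies near the fold threshold. It was -0.37 after quantile normalization and without epirubicin replicate 1, and -0.36 after cyclic loess, none of them called, while the second probe set of the gene fell by 0.54.

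HNRNPU, a nuclear scaffold protein that binds RNA and chromatin, had 10.93, 10.99 and 10.99 with epirubicin, against 11.19, 11.19 and 11.20 with shCtrl. The epirubicin arrays were all lower, by 0.22 on the log2 scale (adjusted p = 0.0027). Several brightly read members of the class did not pass the test. HNRNPA1, a repressor that antagonises SR proteins at splice sites, had a log2 fold change of -0.05 (95% CI -0.12 to 0.02, adjusted p = 0.244). HNRNPK, which binds C-rich RNA, had one of -0.08 on its brightest probe set (95% CI -0.18 to 0.02, adjusted p = 0.195). The mean of its 6 probe sets gave -0.22 (adjusted p = 0.00182), and 4 of the 6 were lower at any fold, by 0.24 to 0.35. HNRNPF and HNRNPH1, which bind G-rich RNA, had -0.04 and -0.03. HNRNPM was higher by 0.20 on its brightest probe set (adjusted p = 0.00513) and is taken up with the probe sets below.

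The Sm proteins form the ring around the spliceosomal RNAs. All 7 measured members had every epirubicin array below every shCtrl array, as had 42.8% of all genes with a mean above 8. At an adjusted p under 0.05 at any fold 5 were lower (71.4%), against 29.8% of all genes above 8. None was called on its brightest probe set, and the median was -0.21. SNRPF had log2 values of 10.63, 10.64 and 10.64 on the epirubicin arrays, against 11.02, 11.00 and 10.99 on the shCtrl arrays. The arrays within a group hardly differed, and the level was 1.29-fold lower with epirubicin (SE 0.03, adjusted p = 0.000282), just short of 1.3. Its probe sets at -0.43 and -0.42 were called lower.

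SNRPD1 had 9.94, 9.95 and 9.96 with epirubicin, against 10.23, 10.27 and 10.28 with shCtrl. The groups were again apart, at -0.31 on the log2 scale (SE 0.03, adjusted p = 0.000666), and both of its other probe sets were called lower, by 0.44 and 0.39. SNRPB, which encodes the B and B′ subunits, differed by -0.11 (adjusted p = 0.0285). SNRPD2 and SNRPG had -0.09 and -0.08 and did not pass the test. Of the 4 proteins specific to the U1 or U2 particle 3 were lower at any fold (29.8% of all genes above 8 were), with a median of -0.15. SNRPA, the U1-specific A protein that binds a stem-loop of U1 RNA, had 8.74, 8.80 and 8.80 with epirubicin, against 9.08, 9.07 and 9.08 with shCtrl. The epirubicin arrays were lower throughout, at a log2 fold change of -0.30 (SE 0.03, adjusted p = 0.000848).

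The factors that recognise the branch point and the polypyrimidine tract had the median closest to 0 of the 7 classes of splicing proteins. Of 11 SF3A, SF3B and U2AF members 3 were lower (27.3%) and 1 higher at any fold, with a median of -0.04. By this measure 13.5% of all genes, and 29.8% of those with a mean above 8, were lower. SF3B2, an SF3b subunit that contacts RNA near the branch point, had 9.48, 9.48 and 9.50 with epirubicin, against 9.87, 9.77 and 9.82 with shCtrl. The groups did not overlap, at -0.33 on the log2 scale (SE 0.04, adjusted p = 0.000919). SF3B1, the largest SF3b subunit, had 10.67, 10.68 and 10.71 with epirubicin, against 10.71, 10.72 and 10.70 with shCtrl. Its groups overlapped, the log2 fold change was -0.02 (95% CI -0.09 to 0.05, adjusted p = 0.702), and it was 0.02 after cyclic loess and -0.08 (adjusted p = 0.0781) with the mean of its 3 probe sets.

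U2AF2, the large subunit of the factor that binds the polypyrimidine tract, differed by -0.12 (adjusted p = 0.0656). U2AF1L4, a paralogue of the small subunit, had 7.65, 7.60 and 7.74 with epirubicin, against 7.30, 7.34 and 7.36 with shCtrl. Every epirubicin array was higher, by 0.33 on the log2 scale (SE 0.04, adjusted p = 0.00222), and its 3 other probe sets had 0.37, 0.26 and 0.07. Its brightest probe set has the suffix x and may also bind other transcripts. U2AF1 itself was read only by 2 probe sets that also name a duplicate locus, both at -0.07 and not passing the test.

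LSM proteins form the ring of U6 RNA in the nucleus and a related ring that promotes mRNA decay in the cytoplasm. Of 12 measured members 8 were lower at any fold (66.7%) and none was higher, where 29.8% of all genes with a mean above 8 were lower. All 12 had fold changes below 0, and the median was -0.17. LSM6, a subunit of both rings, had 9.79, 9.73 and 9.74 with epirubicin, against 10.10, 10.09 and 10.11 with shCtrl. The epirubicin arrays lay below, at -0.34 on the log2 scale (SE 0.03, adjusted p = 0.00052). LSM14B, a relative of the P-body protein LSM14A that is not part of the rings, differed by -0.29 (adjusted p = 0.00264). LSM1, which is specific to the cytoplasmic ring, differed by -0.11 (adjusted p = 0.0579). LSM10 and LSM11, which serve the U7 particle of histone mRNA processing, had -0.10 and -0.03 and did not pass.

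The PRPF proteins include core and tri-snRNP components, and 4 of 11 were lower at any fold (36.4%), with a median of -0.13. By this measure 13.5% of all genes, and 29.8% of those with a mean above 8, were lower. PRPF38A, which acts in spliceosome activation, had 8.03, 8.20 and 8.17 with epirubicin, against 8.44, 8.43 and 8.42 with shCtrl. The groups did not overlap, at -0.30 (SE 0.05, adjusted p = 0.00516). PRPF6, which bridges parts of the tri-snRNP, differed by -0.26 (adjusted p = 0.00614). PRPF8, the protein at the catalytic core, differed by -0.12 (adjusted p = 0.0539), and by -0.15 (adjusted p = 0.0112) with the mean of its 2 probe sets. LSMEM1, LSMEM2 and HNRNPCL2, which the rule takes in by their letters or as a dimly read paralogue of HNRNPC, had log2 fold changes of -0.01, -0.08 and 0.01, with overlapping groups.

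**Figure D3:**
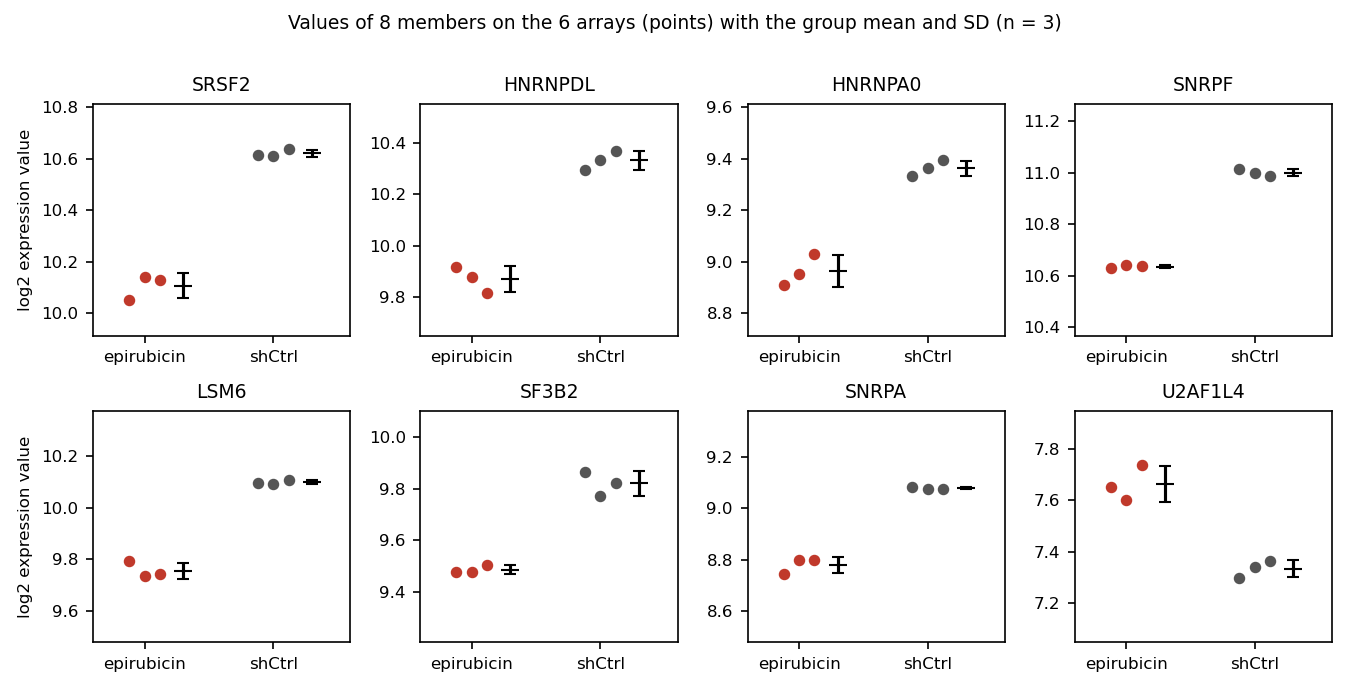
Log2 expression values of 8 members on the 3 epirubicin arrays (red, left) and the 3 shCtrl arrays (grey, right), each point 1 array, with the group mean and SD (n = 3) beside it. All panels span the same range of log2 units around their own centre. The groups do not overlap in any panel, and U2AF1L4 is the panel in which epirubicin is higher.

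Because most members were lower together, the sequences before their start sites were read from RefSeq (GRCh38.p14), where 71 of the 80 members had an entry. Each promoter window held 250 bases before and 50 after the start, and motifs were searched on both strands, overlaps allowed. The ETS core CCGGAAG was present in 22 member windows (31.0%), where 14.6% of all 14155 windows held it. The CCAAT box CCAAT was in 45.1%, where 36.4% of all held it, and the GC box GGGCGG in 60.6%, where 59.9% did. The E-box CACGTG was in 11.3% against 8.79% of all windows. The TATA box TATAAA was in 8.45% against 9.20%, and the cell cycle homology region TTTGAA in 11.3% against 12.1%. In the windows of the 37 members that were lower at any fold, the ETS core was in 29.7%, the CCAAT box in 51.4%, the GC box in 62.2%, the E-box in 5.41%, the TATA box in 10.8% and TTTGAA in 16.2%. A match is a description of the letters and not a site in use.

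The 150 bases before the start are shown for 6 members, chosen as lower members of their classes with a match (SNRPF, HNRNPA0, SF3B2), as an SR gene with a pair of CCAAT boxes (SRSF3), and as genes whose probe sets moved in both directions (SNRPA1, HNRNPD). Capitals mark the ETS core, the CCAAT box and the E-box in either orientation, and each sequence is written in the direction of its gene.
SNRPF, chr12:95858802-95858951, plus strand: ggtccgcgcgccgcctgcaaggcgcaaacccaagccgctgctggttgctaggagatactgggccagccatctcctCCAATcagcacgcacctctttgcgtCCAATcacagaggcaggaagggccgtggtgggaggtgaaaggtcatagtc
HNRNPA0, chr5:137754364-137754513, minus strand: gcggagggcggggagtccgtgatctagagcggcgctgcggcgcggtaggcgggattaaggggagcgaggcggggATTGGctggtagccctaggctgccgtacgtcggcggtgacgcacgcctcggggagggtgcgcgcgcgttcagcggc
SF3B2, chr11:66052214-66052363, plus strand: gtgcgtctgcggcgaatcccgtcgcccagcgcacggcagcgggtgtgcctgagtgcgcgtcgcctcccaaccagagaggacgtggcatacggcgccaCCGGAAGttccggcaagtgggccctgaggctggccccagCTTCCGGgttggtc
SRSF3, chr6:36594212-36594361, plus strand: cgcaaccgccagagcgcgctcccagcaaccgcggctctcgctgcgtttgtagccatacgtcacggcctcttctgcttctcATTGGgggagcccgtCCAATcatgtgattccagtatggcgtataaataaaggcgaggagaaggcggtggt
SNRPA1, chr15:101295249-101295398, minus strand: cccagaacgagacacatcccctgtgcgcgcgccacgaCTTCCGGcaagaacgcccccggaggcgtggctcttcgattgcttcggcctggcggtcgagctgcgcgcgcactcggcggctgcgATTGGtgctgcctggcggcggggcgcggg
HNRNPD, chr4:82373992-82374141, minus strand: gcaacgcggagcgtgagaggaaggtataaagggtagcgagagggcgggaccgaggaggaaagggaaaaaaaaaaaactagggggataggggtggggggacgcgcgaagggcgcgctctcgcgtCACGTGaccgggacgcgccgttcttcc
SNRPF and SRSF3 each hold CCAAT boxes close together, SF3B2 holds the ETS core once in each orientation, and SNRPA1 holds both motifs.

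The brightest probe set did not stand for every gene. Over all 255 member probe sets, fitted with all 47481 probe sets of the array, 20 were called lower, in 13 genes, where 2.64% of all single-gene probe sets were called lower. In 10 of the 13 genes the brightest probe set was not called. A further 3 probe sets were called higher, in HNRNPD and SRSF5, where 3.67% of all single-gene probe sets were called higher. The share of all genes with at least 1 called probe set is not given here, so these counts of genes describe the members only. At any fold 141 were lower (55.3%), where 13.3% of all single-gene probe sets were, and 12 were higher (4.71%), where 11.8% were. At least 1 lower probe set was found in 55 of the 80 members (68.8%), where 17.6% of all genes had one. Among genes with a brightest mean above 8 the shares were 79.7% of members and 39.2% of all genes. SRSF1 gave the largest decrease, on a probe set with 9.35, 9.39 and 9.37 with epirubicin, against 9.96, 10.00 and 9.94 with shCtrl. The epirubicin arrays were all lower, by 0.60 on the log2 scale (SE 0.04, adjusted p = 0.000127).

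A test of whether the probe sets of 1 gene differ in their fold change (limma's diffSplice, probe sets above the median of all values) passed for 18 of 56 members that could be tested (32.1%), where 18.3% of all 5794 such genes passed. Those genes were not matched to the members by brightness or by number of probe sets, so the 2 shares cannot be compared closely. In 5 members, HNRNPD, HNRNPDL, HNRNPM, SNRPA1 and SRSF5, probe sets lay in both directions with an adjusted p under 0.05 each way, which is 8.20% of the 61 members with 2 or more probe sets, where 0.399% of all such genes did. Among genes with 3 or more probe sets and a brightest mean above 8, it was 5 of 40 members (12.5%), where 0.844% of all such genes did. A probe set reads a short stretch near the transcript's end, and those with the suffix x may also bind other transcripts. Which transcript each probe set reads was not resolved here.

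HNRNPD, whose product AUF1 binds AU-rich elements and is made in several isoforms, differed most (diffSplice adjusted p = 6.2e-25). One probe set, 11761589_x_at, had log2 values of 7.33, 7.42 and 7.34 on the epirubicin arrays, against 6.51, 6.51 and 6.37 on the shCtrl arrays. The epirubicin arrays were all higher, by 0.90 (SE 0.05, adjusted p = 0.000107). A second probe set, 11760952_x_at, was also higher by 0.50 (adjusted p = 0.000367). The other 6 probe sets of HNRNPD were all lower, from -0.42 to -0.22, and the one at -0.42 had 8.11, 8.09 and 8.07 with epirubicin, against 8.52, 8.51 and 8.51 with shCtrl.

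SRSF5, an SR protein gene that responds to insulin and growth signals, showed a like pattern (adjusted p = 2.22e-14). The probe set 11760894_s_at had 6.68, 6.84 and 6.64 with epirubicin, against 6.31, 6.22 and 6.23 with shCtrl, a rise of 0.46 (adjusted p = 0.00235). A second was higher by 0.30 (adjusted p = 0.0051), and the other 9 ran from -0.18 to -0.04. HNRNPDL (adjusted p = 5.89e-12) had 2 probe sets called lower, both by 0.46, 2 that were higher, by 0.27 (adjusted p = 0.00594) and 0.20 (adjusted p = 0.00702), and 1 at -0.26. The one at 0.27 has the suffix x, as has 1 of the 2 called lower.

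HNRNPM (adjusted p = 3.95e-07), which regulates alternative exons, was higher by 0.20 on its brightest probe set and lower by 0.26 and 0.23 on its other 2. The brightest has the suffix x and the other 2 do not. SNRPA1 (adjusted p = 1.77e-06), a U2-specific protein, had 6.94, 6.82 and 6.93 with epirubicin on 11760017_a_at, against 6.59, 6.64 and 6.52 with shCtrl. That probe set was higher by 0.32, while the other 2 were lower, by 0.26 and 0.16. In SRSF1 (adjusted p = 3.23e-06) and HNRNPC (adjusted p = 1.03e-05), which binds uridine tracts, the probe sets differed in size and not in direction, from -0.60 to -0.26 and from -0.53 to -0.17. The smallest change was on the brightest probe set in both genes, and the part of signal level in this was not tested. SRSF11 (adjusted p = 8.9e-05) ran from -0.08 to 0.19.

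**Figure D4:**
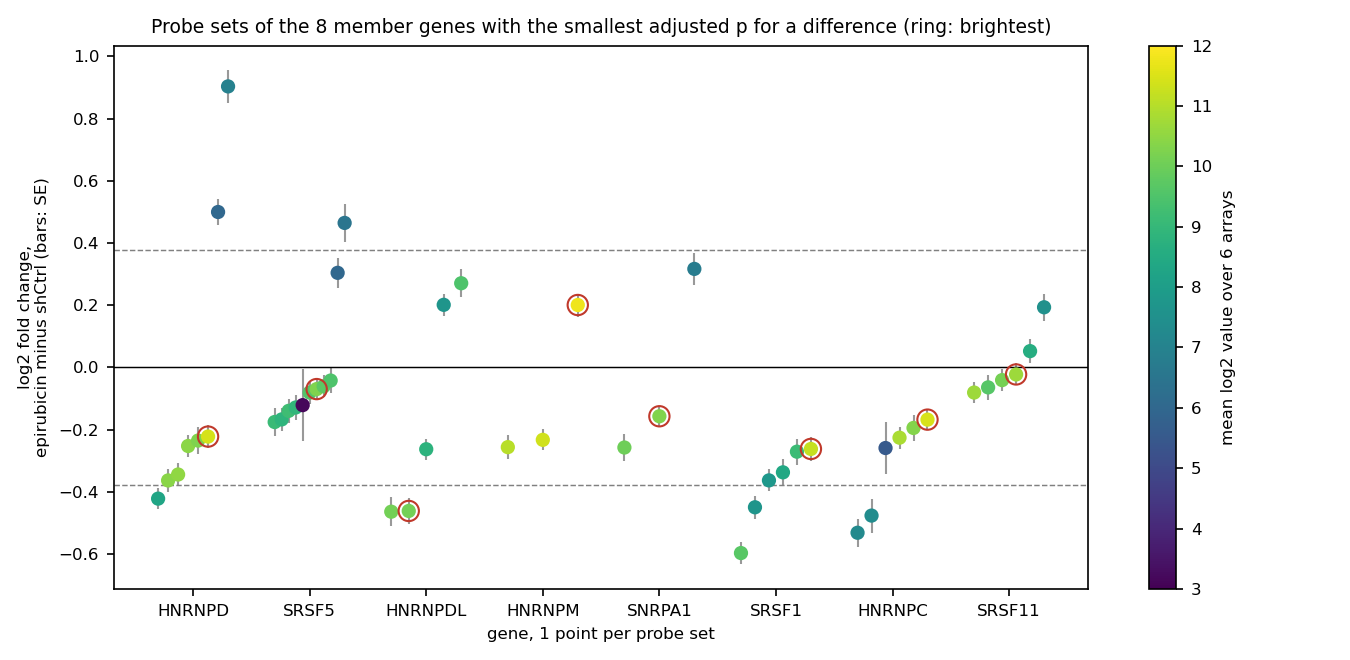
Log2 fold change (epirubicin minus shCtrl, bars SE) of every single-gene probe set of the 8 members with the smallest diffSplice adjusted p. Colour gives the mean log2 value over the 6 arrays, a red ring marks the brightest probe set of the gene, and dashed lines mark a fold change of 1.3. HNRNPD spans -0.42 to 0.90, and HNRNPDL, HNRNPM, SNRPA1 and SRSF5 also have probe sets on both sides of 0.

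Genes that work with these members were read from 6 lists holding 143 measured genes, of which 7 were called lower (4.90%, where 2.14% of all genes were) and 3 higher (2.10%, where 4.36% of all genes were). The median was -0.07. The lowest median of the 6 lists belonged to the proteins that build snRNPs by loading the Sm ring onto the RNAs. Of 15, 4 were called lower (26.7%), none was higher, and the median was -0.28. At any fold 10 were lower (66.7%, where 13.5% of all genes were). GEMIN2, the SMN partner that holds Sm proteins during assembly, had log2 values of 6.08, 6.12 and 6.02 on the epirubicin arrays, against 6.79, 6.87 and 6.72 on the shCtrl arrays. The groups were far apart, GEMIN2 fell by 0.72 (SE 0.05, adjusted p = 0.000163), and all 5 of its probe sets were called lower.

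WDR77 and PRMT5, which form the methylosome that methylates Sm proteins, fell by 0.56 (adjusted p = 0.000167) and 0.51 (adjusted p = 0.000177). GEMIN5, which binds the snRNA and is named here after its value was seen to complete the count, fell by 0.49 (adjusted p = 0.000648). Among 38 other RNA-binding regulators 2 were called lower, TAF15 of the FET family by 0.63 (adjusted p = 8.91e-05) on all 3 of its probe sets and FUBP1, which binds single-stranded DNA and RNA, by 0.45 (adjusted p = 0.000793), which the mean of its 5 probe sets (-0.33) did not reach. Among 13 genes of the exon junction complex and of nonsense-mediated decay, RBM8A, the core protein Y14, fell by 0.38 (adjusted p = 0.00065) on its brightest probe set, near the threshold, while its other probe set was higher by 0.16 (adjusted p = 0.0394). The mean of both gave -0.11, and the call was also lost, against a threshold of 0.3785, after cyclic loess (-0.375), without epirubicin replicate 1 (-0.35) and without shCtrl replicate 2 (-0.37).

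The 3 genes called higher all belonged to the 26 SR-related proteins and SR kinases. In that list 9 were higher (34.6%) and 6 lower (23.1%) at any fold, and the median was 0.04. Of all genes 15.6% were higher and 13.5% lower at any fold. TRA2B, a relative of TRA2A, and the SR kinase gene SRPK1, named after their values were seen, had -0.31 (adjusted p = 0.000544) and -0.29 (adjusted p = 0.00134). CLK1, a kinase that phosphorylates SR proteins, had 9.19, 9.21 and 9.25 with epirubicin, against 8.65, 8.66 and 8.68 with shCtrl. The epirubicin arrays were all higher, CLK1 rose by 0.55 (SE 0.03, adjusted p = 8.91e-05), and all 3 of its probe sets were called. Its relative CLK4 rose by 0.43 (adjusted p = 0.000276), with 5 of 9 probe sets called, and the mean over the 9 gave 0.32. TRA2A, which binds GAA-rich enhancers, rose by 0.38 on its brightest probe set (adjusted p = 0.00159). The mean of its 5 probe sets gave -0.01 and the one brightest in shCtrl -0.10, and the call was lost without epirubicin replicate 2 (0.34), without shCtrl replicate 1 (0.378) and without shCtrl replicate 2 (0.37). None of the 44 other spliceosome proteins and none of the 7 SNRNP genes was called. At any fold 13 (29.5%) were lower and 5 (11.4%) higher among the 44, and 3 of the 7 (42.9%) were lower. Of all genes with a mean above 8, 29.8% were lower and 21.8% higher by this measure.

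**Figure D5:**
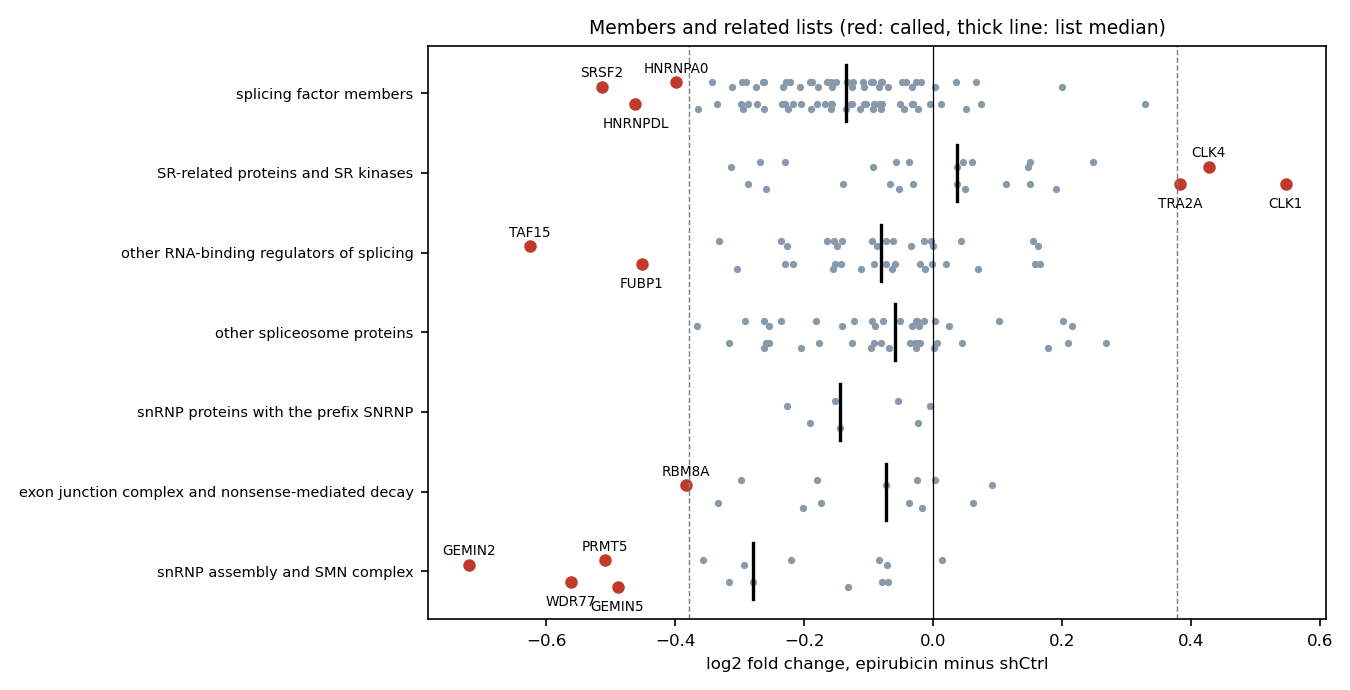
Log2 fold change (epirubicin minus shCtrl) of the 80 members and of 6 related gene lists, 1 point per gene on its brightest probe set. Red points are called, and dashed lines mark the fold threshold of 1.3. Thick lines are medians. snRNP assembly has the lowest median at -0.28, and CLK1, CLK4 and TRA2A are the called points above 0.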

How the data were processed

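The table held the authors' deposited log2 expression values, 1 per probe set and array. That they are log2 was judged from their range (1.41 to 13.73, array medians 5.52 to 5.57), and no further normalization was applied. The submitters' processing notes name affy, without a version; for background correction, normalization and probe summary the method is not given in the sources used here. Scanner files, scan dates and detection calls were not used here, and precision is limited by the number of arrays. Values are relative to the bulk of transcripts. The table held no control probe sets for 3′ and 5′ ends. RNA quality was therefore not assessed, as array medians do not measure it.

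Names of probe sets came from the platform annotation (43976 with 1 symbol, 1558 with several, 1947 with none; 43954 of the 43976 matched the RefSeq gene table of GRCh38.p14). SRSF10, PRPF4B and U2AF1L5 were not analysed here, and HNRNPH2, SNRPN and LSM8 were read only by probe sets naming several genes. Groups came from the sample labels. limma 3.58.1 in R 4.3.3 (lmFit, eBayes, no covariate) was fitted to 17534 genes, 47481 probe sets, and, with diffSplice, 5794 genes. The thresholds are those of the series' design text. The fits were also run on simulated data with known changes and independent noise. Such data cannot speak to how these arrays were replicated or to probe sets that bind other transcripts. Replicate numbers did not pair the arrays (correlations of same-numbered deviations -0.06, 0.00 and -0.01).

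Members and lists were chosen with earlier results of these data known. Named genes are every called member, the 2 largest changes per class, preset members, up to 3 called genes per direction and list, the 8 smallest diffSplice p-values, and CDKN1A, MDM2 and MYC. Other genes named beside a count were chosen after their values were seen. Alternatives were the probe set of a gene, a filter on dim genes, quantile and cyclic loess scaling, the variance model, the fold threshold, a replicate block and leaving out each array.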

Additional observations from a re-analysis of the deposited data

How the results depend on the processing

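The count of members called lower was 2 to 3 when each array was left out in turn, 0 at a fold change of at least 1.5 and 42 with no fold threshold, where 2 were higher. At an adjusted p under 0.05 at any fold, 31 to 38 members were lower and 2 higher with an array left out, while the mean of a gene's probe sets gave 52 lower and 1 higher. The shares of all genes under these alternatives are not given here. These counts therefore cannot be set against the shares given above for the brightest probe set. With the mean of probe sets 4 members were called lower: SRSF1 (-0.38) and SNRPD1 (-0.38) gained a call and HNRNPDL (-0.14) lost its own. The members' median of -0.13 became -0.15 with the mean of probe sets, -0.16 among genes above the median of all values, -0.11 after quantile normalization, -0.10 after cyclic loess (added after seeing the data), and -0.14 to -0.13 without 1 array. The lists had 6 to 8 genes called lower and 2 to 3 higher without 1 array, 51 and 17 with no fold threshold, 2 and 0 at a fold of at least 1.5, and 1 higher with the mean of probe sets. The count of members whose probe sets differ was 16 to 17 without 1 array. With the replicate number as a block, which does not pair these arrays, 3 members were called lower, 32 were lower at any fold, and 17 differed between probe sets.

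Of 559 gene values under the alternatives, 511 kept direction and side of the threshold and 8 reversed. With the mean of probe sets LSMEM2 had 0.0176 and TRA2A -0.0057, and TRA2A had -0.10 on the probe set brightest in shCtrl. HNRNPCL2, whose value is near 0, had -0.0017 after quantile normalization and -0.005 after cyclic loess, and ran from -0.0732 without epirubicin replicate 3 to 0.0947 without epirubicin replicate 1 (-0.0432 without shCtrl replicate 2). SF3B1 had 0.0216 after cyclic loess. The cause was not tested. Quantile normalization and cyclic loess left the median of all genes at 0.01 and 0.02.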

Other observations

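A further 19 probe sets name a splicing factor gene, or a copy or readthrough of one, together with another gene, and none of them was called. Some genes were read only in this way. The 3 probe sets shared by SNRPN, the tissue-restricted copy of the Sm protein B, and its upstream partner SNURF had log2 fold changes of 0.22 (adjusted p = 0.00743), 0.16 (adjusted p = 0.0205) and 0.10 (adjusted p = 0.0707). SNRPB, its ubiquitous relative, had -0.11 (adjusted p = 0.0285). HNRNPH2, with its readthrough gene, had 0.11, 0.11 and -0.07, and LSM8, a subunit of the nuclear LSM ring listed with NAA38, had -0.08 and -0.02, with no adjusted p under 0.05 in these 5 probe sets.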
